A study of Homo sapiens with 6 samples.

Results

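The genes described here are 8 transcription factors grouped as intestinal identity factors, CDX1, CDX2, HNF4A, HNF4G, GATA6, GATA2, KLF4 and KLF5. They were chosen by name, as the rows whose Ensembl identifier carries one of these symbols in gencode release 44, and all 8 were found among the 60676 genes listed for HT29 cells, a human colorectal adenocarcinoma line recorded as wild-type (WT) and of colon origin. HT29 cells were kept for 48 h in control medium (untreated), in medium without histidine (histidine depletion, −H) or in medium without tryptophan (tryptophan depletion, −W), and 2 libraries of polyadenylated RNA were sequenced per group, 6 in all. No agent or further genetic change is recorded for any group. Cells without histidine were in a medium of the RPMI-1640 type and cells without tryptophan in one of the DMEM F-12 type, both with dialyzed serum, while the base of the control medium for RNA-seq was not given in the sources used here. The effect of an amino acid and that of its base medium therefore cannot be told apart in any comparison below, that between the depletions included. Nothing says that replicates came from separate cultures, so the p-values measure only the spread between these libraries, which may be technical.

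CDX1 and CDX2 are caudal-type homeobox factors that specify the intestine during development and keep its epithelial program on in the adult. HNF4A and HNF4G are nuclear receptors that act together on enterocyte genes for the brush border and lipid handling. GATA factors bind DNA through zinc fingers, and of those treated here GATA6 is the intestinal member, whereas GATA2 is best known from blood progenitors and endothelium. KLF4 and KLF5 are zinc finger factors of the Krüppel-like family, known in the gut for opposite zones, KLF4 for differentiated surface and goblet cells and KLF5 for dividing crypt cells.

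The start-site sequences of CDX2, HNF4A and KLF4 are printed because these genes had the clearest falls within the CDX and HNF4 families and the largest rise among the members, as described below. Each is the 250 bases before a RefSeq start (GRCh38.p14), on the strand of the gene, 5′ to 3′. The RefSeq promoter table held 6 of the 8 members, without CDX1 and HNF4G. Capitals mark, on either strand, TTTAT (a core letter string of CDX sites) in CDX2, CACCC (the core of the CACC box bound by Krüppel-like factors) in HNF4A and GGGCGG (a GC box, of the kind bound by Sp and Krüppel-like factors) in KLF4. The lines give CDX2 at chr13:27969316-27969565 (minus strand), HNF4A before its upstream start at chr20:44355449-44355698 and before its downstream start at chr20:44400989-44401238 (plus strand), and KLF4 at chr9:107489770-107490019 (minus strand).
CDX2: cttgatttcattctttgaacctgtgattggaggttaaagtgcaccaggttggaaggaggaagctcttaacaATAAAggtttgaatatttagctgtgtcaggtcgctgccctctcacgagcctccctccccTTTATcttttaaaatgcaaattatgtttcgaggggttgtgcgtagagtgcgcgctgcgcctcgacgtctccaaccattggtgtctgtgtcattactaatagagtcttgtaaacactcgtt
HNF4A, upstream start: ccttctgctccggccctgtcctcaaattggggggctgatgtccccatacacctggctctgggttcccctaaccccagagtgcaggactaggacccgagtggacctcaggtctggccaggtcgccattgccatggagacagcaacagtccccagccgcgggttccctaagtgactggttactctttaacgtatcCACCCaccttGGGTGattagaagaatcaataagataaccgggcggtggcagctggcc
HNF4A, downstream start: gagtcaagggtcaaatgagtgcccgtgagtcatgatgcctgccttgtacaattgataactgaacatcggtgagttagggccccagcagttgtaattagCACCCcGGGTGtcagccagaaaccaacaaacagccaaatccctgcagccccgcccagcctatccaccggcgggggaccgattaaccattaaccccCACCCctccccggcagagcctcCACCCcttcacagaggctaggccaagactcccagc
KLF4: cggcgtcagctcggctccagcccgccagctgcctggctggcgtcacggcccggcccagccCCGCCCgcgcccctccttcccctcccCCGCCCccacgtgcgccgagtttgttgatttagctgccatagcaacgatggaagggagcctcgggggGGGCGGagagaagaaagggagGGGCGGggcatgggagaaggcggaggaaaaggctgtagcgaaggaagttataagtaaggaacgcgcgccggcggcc

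The CDX2 window held 2 matches to TTTAT, a string found in 32.8% of all 34943 promoter windows of this length. The match read on the printed strand overlaps a match to the GATA string AGATAA (9.19% of windows) on the other strand. The upstream window of HNF4A also held 1 match to AGATAA. Its downstream window held 1 match to TGATAA, a second GATA string (6.67% of windows). The HNF4A starts lie 45540 bases apart, and the window of the downstream start held 4 matches to CACCC, found in 54.7% of windows, where that of the upstream start held 2. Gene counts add the transcripts of both starts, so the counts of HNF4A below do not say which start was used. The KLF4 window held 4 matches to GGGCGG, found in 42.5% of windows. A match describes the letters of a window and is not a binding site, and the absence of a match says only that these letters are not in it.

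The recovered reads numbered 46.4 to 64.4 M per library. Values per library are given as normalized counts on a scaling shared by all 6 libraries, which differs from the deposited scalings by −0.0118% to 2.67%, and fold changes come from limma on log2(normalized count + 1) within each depletion's own deposited table. Of 11 colon epithelium markers, all 11 passed the filter on low values (a mean of 10 normalized counts) in both comparisons with untreated cells, with EPCAM at 27391 ± 1044 in untreated, 30827 ± 281 in histidine-depleted and 26444 ± 271 in tryptophan-depleted cells (SD, n = 2). Other markers of this list moved far more, such as LGALS4 at 55306, 18587 and 60034 and CEACAM5 at 519, 85.8 and 7904 normalized counts (means in the same order of groups). Markers of other cell types were low. Of 10 leukocyte and mast cell markers, 7 were at or under 3 reads in all 6 libraries, and KIT, TPSAB1 and CPA3 were at 0 throughout. The summed level of that list was 120 to 148 normalized counts in untreated, 59.6 to 73.3 in histidine-depleted and 371 to 387 in tryptophan-depleted libraries, most of it CD14. Sums of 6 endothelial markers were 130 to 153, 56.0 to 65.1 and 161 to 166, and those of 6 fibroblast markers 75.6 to 76.5, 35.2 to 42.7 and 59.8 to 71.4, in the same order of groups. Their part in the results below was not tested.

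Untreated HT29 cells carried all 8 members, at very unequal levels. Levels were set per length as reads per kb of exon per M reads, the only scale on which genes are compared with each other here. In untreated cells KLF5 stood highest at a level of 142 ± 0.889 (SD, n = 2, as for every level in this paragraph), and HNF4A followed at 13.9 ± 0.0131, HNF4G at 12.8 ± 0.218, GATA2 at 9.64 ± 0.429 and GATA6 at 7.69 ± 0.254. KLF4 was at 3.63 ± 0.0218, CDX2 at 2.56 ± 0.105 and CDX1 at 0.223 ± 0.0279. After histidine depletion the order of levels was KLF5 (101 ± 1.20), KLF4 (25.0 ± 0.633), GATA6 (10.6 ± 0.235), HNF4G (7.91 ± 0.0254), GATA2 (3.11 ± 0.109), HNF4A (1.80 ± 0.136), CDX2 (0.861 ± 0.0375) and CDX1 (0). KLF4 thus moved from the sixth place to the second, and HNF4A from the second to the sixth. Tryptophan depletion gave the levels KLF5 (135.6 ± 0.0686), HNF4G (15.3 ± 0.286), KLF4 (13.8 ± 0.0377), GATA6 (6.27 ± 0.225), GATA2 (5.57 ± 0.166), HNF4A (5.24 ± 0.190), CDX2 (2.06 ± 0.216) and CDX1 (0.0419 ± 0.0191). On this scale the libraries of neighbours in the order did not overlap in any group. With the longest transcript as length, untreated HNF4A was at 29.7 and HNF4G at 14.6, in the same order but further apart. With that length GATA2 and HNF4A overlapped after histidine depletion (levels of 4.03 and 3.86), and HNF4G and KLF4 after tryptophan depletion (17.4 and 17.2). The order after tryptophan depletion then became HNF4A (11.2), GATA2 (7.20) and GATA6 (6.57).

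After histidine depletion all 8 members were called, 2 of them higher and 6 lower, and after tryptophan depletion 7 were called, 2 higher and 5 lower. KLF4 rose and HNF4A, GATA2 and CDX2 fell in both depletions, while HNF4G and GATA6 moved in opposite directions in the 2 depletions. KLF5 fell after histidine depletion and did not pass the test after tryptophan depletion. These calls stand against a background in which most genes moved. Of 18288 genes tested after histidine depletion 77.3% were called, 39.1% higher and 38.2% lower (limma, adjusted p under 0.05), and of 17960 tested after tryptophan depletion 70.8% were called, 36.1% higher and 34.8% lower. As most genes were called, the count of called members is not read as a result. The changes are described below by their size. CDX1 passed the filter on low values only through the untreated libraries, so its call in either depletion, though among those counted here, is not read. The median log2 fold change of the 8 members was −0.94 after histidine depletion (the same with CDX1 at its bound, given below) against 0.010 for all genes, and −0.23 after tryptophan depletion against 0.013. Both depletions were compared with the same untreated libraries.

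**Figure D1:**
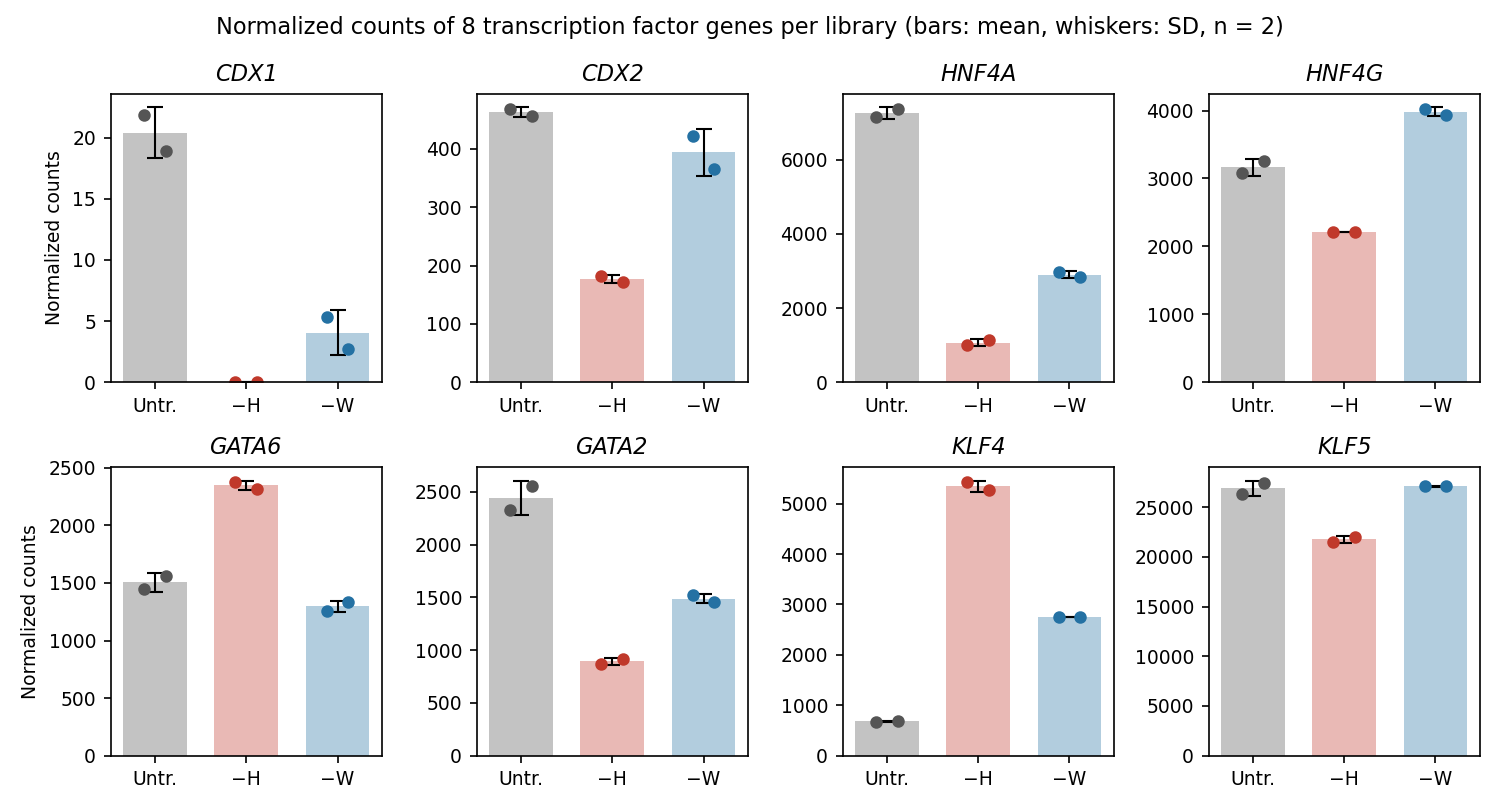
Normalized counts (linear axes from 0, a panel per gene) in untreated, histidine-depleted (−H) and tryptophan-depleted (−W) HT29 cells, with points for libraries, bars for the mean and whiskers for the SD of 2 libraries. KLF4 rises from 677 and 692 normalized counts to 5424 and 5270 in −H, HNF4A falls from 7153 and 7371 to 1006 and 1128, and KLF5 is at 21497 or more in every library.

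Of the caudal homeobox genes, CDX2 was lower after histidine depletion, while CDX1 was at the limit of detection and its call is not read. CDX2 (ENSG00000165556, chromosome 13, 27960918 to 27969315 of GRCh38, minus strand), the main caudal factor of adult intestinal epithelium, had 469 and 457 normalized counts in untreated libraries, 182 and 172 in histidine-depleted and 423 and 365 in tryptophan-depleted ones. The groups did not overlap, and the tryptophan-depleted libraries stood closer to the untreated than to the histidine-depleted ones. Histidine depletion lowered CDX2 2.59-fold (log2 fold change −1.37 ± 0.103 SE, where SE is the standard error, limma adjusted p = 1.14e-11). Tryptophan depletion lowered it 1.18-fold (−0.24 ± 0.0885 SE, limma adjusted p = 0.0108). This small fall was not called without tryptophan depletion replicate 2 (−0.14, limma adjusted p = 0.275), under quantile normalization (−0.13, adjusted p = 0.204), without the trend (adjusted p = 0.0887) or with DESeq2 (adjusted p = 0.0963), and over all alternatives without a limit on the fold the adjusted p ranged from 0.00681 to 0.275. Set directly against tryptophan depletion, CDX2 was 2.22-fold lower after histidine depletion (log2 difference −1.15 ± 0.101 SE, limma adjusted p = 5.59e-07).

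CDX1 (ENSG00000113722, chromosome 5, 150166778 to 150184558, plus strand), its paralog, lay at the limit of detection. The untreated libraries held 20 and 19 reads, the histidine-depleted libraries 0 and 0, and the tryptophan-depleted libraries 5 and 3, which came to 21.9 and 18.9, 0 and 0, and 5.34 and 2.75 normalized counts. Every untreated library was above every depleted one. A count of 0 allows up to 3 reads per library, or 2.88 normalized counts, so CDX1 was at least 7.07-fold lower after histidine depletion than the 20.4 ± 2.09 normalized counts (SD, n = 2) of untreated cells. After tryptophan depletion it was 5.15-fold lower, with a counting interval of 2.37 to 12.8 (95%, exact, from 39 against 8 reads and for counting error only). With so few reads in either depletion CDX1 was under the filter on low values in their direct comparison. Without that filter it was called lower after histidine depletion (log2 difference −2.28 ± 0.563 SE, limma adjusted p = 0.00814), a call that rests on 0 and 0 against 5 and 3 reads and a size that depends on the pseudocount. In bulk RNA, fewer cells that carry a transcript and less of it per cell cannot be told apart, here and for every member.

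HNF4A had the largest fall among the members other than CDX1, while its paralog HNF4G fell less after histidine depletion and rose after tryptophan depletion. HNF4A (ENSG00000101076, chromosome 20, 44355699 to 44432845, plus strand), a regulator of enterocyte differentiation, had 7153 and 7371 normalized counts in untreated libraries, against 1006 and 1128 in −H and 2968 and 2828 in −W. The groups were far apart in comparison with the differences between their replicates. Histidine depletion lowered HNF4A 6.77-fold (log2 fold change −2.76 ± 0.0575 SE, limma adjusted p = 2.93e-22) and tryptophan depletion 2.52-fold (−1.33 ± 0.0475 SE, limma adjusted p = 3.38e-57). Without the trend the limma adjusted p-values were 0.000717 and 0.00102, so their order of size is not read. Directly compared, the histidine-depleted cells had 2.72-fold less than the tryptophan-depleted ones (log2 difference −1.44 ± 0.0546 SE, limma adjusted p = 2.08e-10). HNF4A shared 0.826% of its exonic bases with another gene of the same strand, MIR3646, which had a sum of 1 read over the 6 libraries. HNF4A-AS1, an antisense gene named after it that shares no exonic base with it, had 3 and 6 reads in untreated, 0 and 0 in histidine-depleted and 1 and 1 in tryptophan-depleted libraries.

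HNF4G (ENSG00000164749, chromosome 8, 75407914 to 75566834, plus strand) had 3078 and 3253 normalized counts in untreated libraries, 2212 and 2217 in −H and 4029 and 3937 in −W. The histidine-depleted libraries were the lowest and the tryptophan-depleted ones the highest, with no overlap. HNF4G fell 1.42-fold after histidine depletion (log2 fold change −0.51 ± 0.0540 SE, limma adjusted p = 7.26e-09) and rose 1.25-fold after tryptophan depletion (0.32 ± 0.0487 SE, limma adjusted p = 1.78e-09). The direct difference was −0.85 on the log2 scale (SE 0.0341, limma adjusted p = 3.57e-10). A pseudogene named after HNF4G is annotated, and how the counting treated reads that fit both is not given in the sources used here. The balance within the family changed. Per length, the ratio of HNF4G to HNF4A was 0.912 and 0.936 in untreated, 4.66 and 4.16 in histidine-depleted and 2.88 and 2.95 in tryptophan-depleted libraries, 4.78 and 3.16 times the untreated ratio. With the longest transcript as length the mean ratios were 0.492, 2.35 and 1.55 in the same order, with the same multiples.

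Of the GATA factors, GATA6 rose after histidine depletion while GATA2 fell in both depletions. GATA6 (ENSG00000141448, chromosome 18, 22169589 to 22202528, plus strand), which supports the differentiation of intestinal epithelium, had 1446 and 1564 normalized counts in untreated libraries, 2375 and 2318 in −H and 1260 and 1330 in −W. The histidine-depleted libraries were the highest and the tryptophan-depleted ones the lowest, with no overlap. Histidine depletion raised GATA6 1.57-fold (log2 fold change 0.65 ± 0.0587 SE, limma adjusted p = 3.48e-10). Its change after tryptophan depletion was −0.22 (SE 0.0585, limma adjusted p = 0.000391), and this call was lost without tryptophan depletion replicate 1 (−0.18, limma adjusted p = 0.0586) and without the trend (adjusted p = 0.0665), with adjusted p-values between 2.67e-06 and 0.0665 over all alternatives without a limit on the fold. The direct difference between the depletions was 0.86 (SE 0.0434, limma adjusted p = 2.94e-09).

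GATA6 shared 10.9% of its exonic bases with genes of the opposite strand, GATA6-AS1 and ENSG00000266283. The libraries were stranded, but whether the counting used strand was not given in the sources used here. Without strand, reads from the shared bases cannot be assigned. GATA6-AS1 had 167 ± 2.16 normalized counts in untreated and 119 ± 0.486 in histidine-depleted cells (SD, n = 2; log2 fold change −0.48, limma adjusted p = 0.00345). Its tryptophan-depleted libraries, at 118 and 152 normalized counts, were below the untreated ones at 165 and 168 but far from each other. GATA6-AS1 was called lower there (log2 fold change −0.32, limma adjusted p = 0.0380), but no change is read from libraries so far apart. ENSG00000266283 had 47.9 ± 1.23, 56.3 ± 6.75 and 28.2 ± 2.35 normalized counts in untreated, histidine-depleted and tryptophan-depleted cells. Its change after histidine depletion did not pass the test (0.23, limma adjusted p = 0.334), and after tryptophan depletion it fell (−0.75, adjusted p = 0.00835).

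GATA2 (ENSG00000179348, chromosome 3, 128479427 to 128493201, minus strand) had 2326 and 2556 normalized counts in untreated libraries, 867 and 918 in −H and 1517 and 1460 in −W. All untreated libraries were above all tryptophan-depleted ones, and these were above all histidine-depleted ones. The fall was 2.71-fold after histidine depletion (log2 fold change −1.44 ± 0.0633 SE, limma adjusted p = 3.36e-16) and 1.65-fold after tryptophan depletion (−0.72 ± 0.0544 SE, limma adjusted p = 1.96e-25), and the direct difference was −0.74 (SE 0.0505, limma adjusted p = 5.08e-08). Without the trend the limma adjusted p-values against untreated cells were 0.00100 and 0.00435. GATA2-AS1, which runs on the other strand and shares 1.59% of the exonic bases of GATA2, fell with it. It went from 1036 ± 88.5 normalized counts in untreated cells to 329 ± 5.99 after histidine depletion (log2 fold change −1.64, limma adjusted p = 4.40e-15) and to 814 ± 18.0 after tryptophan depletion (−0.35, adjusted p = 1.06e-06; SD, n = 2 each). Of the endothelial markers TEK went from 88.2 normalized counts in untreated to 6.50 in histidine-depleted cells, PECAM1 from 42.4 to 8.64 and VWF from 5.81 to 41.6. All 3 passed the filter on low values through the higher group alone, so no call is read from them. After tryptophan depletion, where GATA2 fell too, TEK rose to 136 normalized counts (log2 fold change 0.61, limma adjusted p = 0.000444) and PECAM1 fell to 19.3 (−1.09, adjusted p = 0.000605). Their part in the fall of GATA2 was not tested. Per length, the ratio of GATA6 to GATA2 went from 0.804 and 0.791 in untreated libraries to 3.54 and 3.27 in −H and 1.07 and 1.18 in −W, 4.27 and 1.41 times the untreated ratio.

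**Figure D2:**
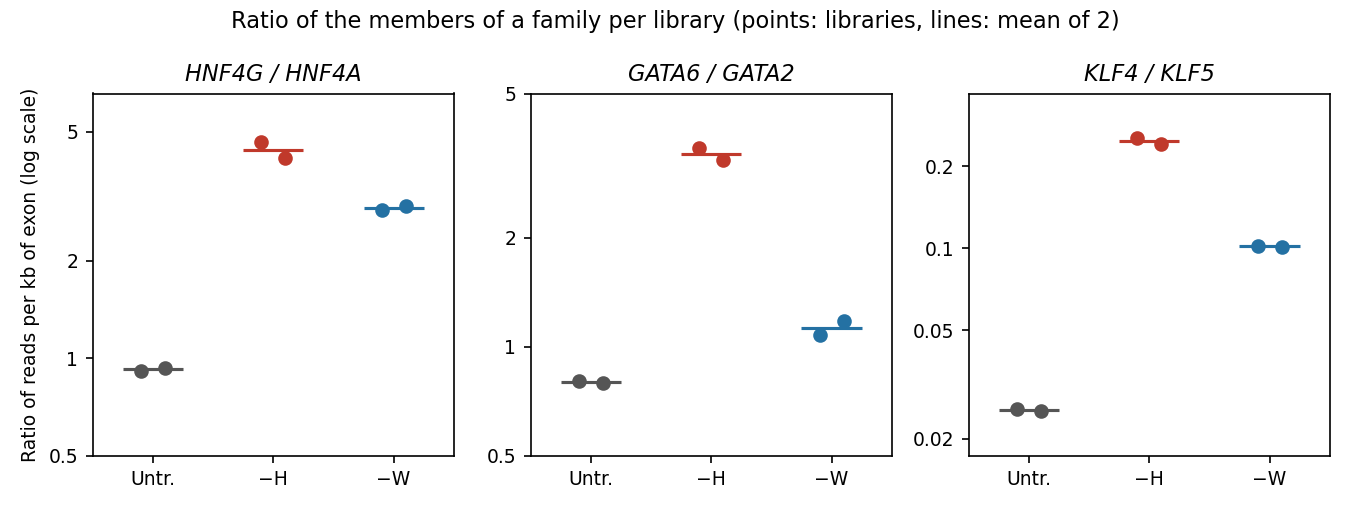
Ratio of the levels per kb of exon of HNF4G to HNF4A, GATA6 to GATA2 and KLF4 to KLF5 in each library (log axes, points), with the mean of the 2 libraries of a group as a line. In every pair the untreated libraries are lowest and the histidine-depleted (−H) ones highest, from 0.0253 to 0.254 for KLF4 over KLF5.

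KLF4 showed the largest rise of the members in each depletion, and KLF5 moved far less. KLF4 (ENSG00000136826, chromosome 9, 107484852 to 107490482, minus strand), known for its part in cell cycle exit and goblet cell differentiation, had 677 and 692 normalized counts in untreated libraries, 5424 and 5270 in −H and 2745 and 2743 in −W. The groups were separated by many times the difference between replicates. KLF4 rose 7.85-fold after histidine depletion (log2 fold change 2.97 ± 0.0562 SE, limma adjusted p = 5.26e-23) and 3.98-fold after tryptophan depletion (1.99 ± 0.0582 SE, limma adjusted p = 2.27e-67). Without the trend the limma adjusted p-values were 0.000701 and 0.000756, so their order of size is not read. KLF4 was 1.95-fold higher after histidine than after tryptophan depletion (log2 difference 0.96 ± 0.0324 SE, limma adjusted p = 7.42e-11). On the opposite strand 9.75% of its exonic bases are shared with ENSG00000289987, which is not among the listed genes, and a pseudogene named after KLF4 is annotated. Without strand, reads of the former would add to KLF4, which was not tested. How the counting treated reads that fit both KLF4 and its pseudogene is not given in the sources used here.

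KLF5 (ENSG00000102554, chromosome 13, 73054976 to 73077541, plus strand), which maintains proliferation in the crypt, had 26359 and 27443 normalized counts in untreated libraries, 21497 and 22013 in −H and 27093 and 27167 in −W. The histidine-depleted libraries were below all others, and the tryptophan-depleted libraries fell inside the range of the untreated ones. KLF5 fell 1.23-fold after histidine depletion (log2 fold change −0.30 ± 0.0529 SE, limma adjusted p = 1.96e-05), and by −0.53 on the log2 scale under quantile normalization. After tryptophan depletion its change was 0.0051 (SE 0.0508, limma adjusted p = 0.935), with a 95% interval of −0.0955 to 0.106. Quantile normalization turned that value negative and past the threshold (−0.14, limma adjusted p = 0.00023), with adjusted p-values between 0.00023 and 0.997 over the alternatives without a limit on the fold. The direct difference between the depletions was −0.32 (SE 0.0243, limma adjusted p = 1.44e-07). Per length, KLF4 stood at 0.0258 and 0.0253 of KLF5 in untreated, 0.254 and 0.241 in histidine-depleted and 0.102 and 0.101 in tryptophan-depleted libraries, 9.66 and 3.98 times the untreated ratio.

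Compared directly, all 7 members tested differed between the depletions, 2 higher and 5 lower after histidine depletion, while 78.3% of 18276 genes did so, 39.9% higher and 38.4% lower (limma, adjusted p under 0.05). Their median log2 difference was −0.74, against 0.018 for all genes. HNF4A, CDX2, HNF4G, GATA2 and KLF5 were lower and KLF4 and GATA6 higher after histidine depletion. For CDX2, HNF4A, GATA2 and KLF4 the depletions had moved the gene the same way, and histidine depletion moved it further.

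**Figure D3:**
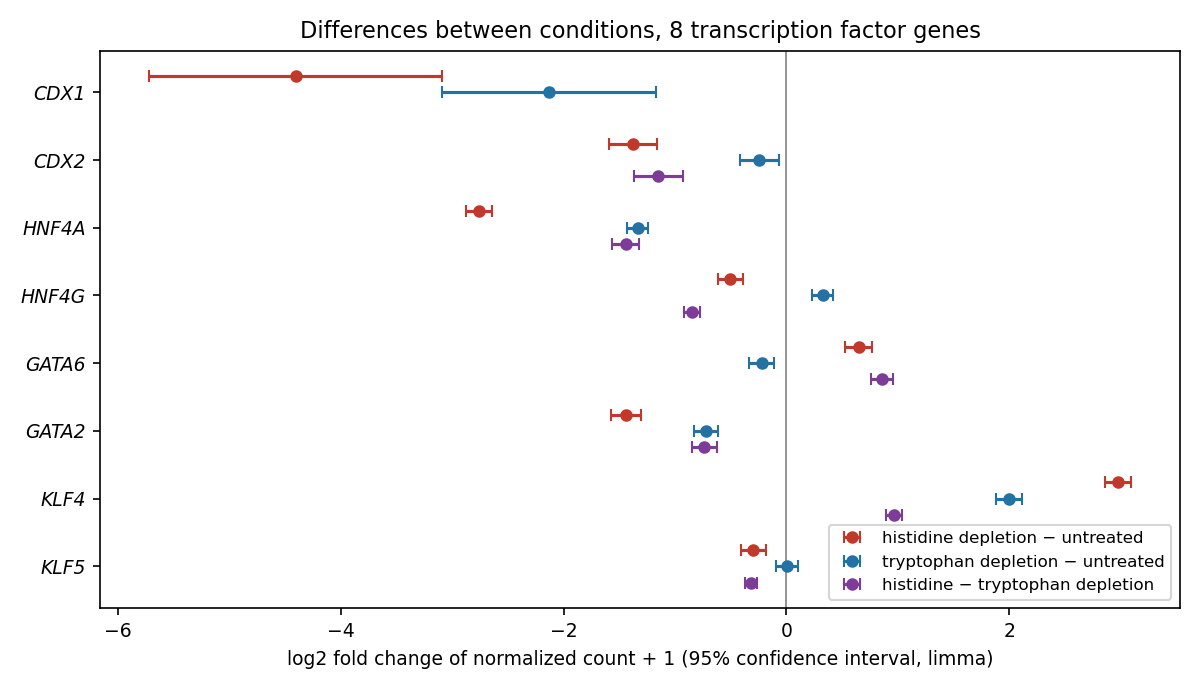
log2 fold change of normalized count + 1 with its 95% confidence interval from limma (horizontal axis) for each gene (vertical axis), for histidine depletion against untreated, tryptophan depletion against untreated and histidine against tryptophan depletion. HNF4G and GATA6 lie on opposite sides of 0 in the depletions, KLF5 after tryptophan depletion lies at 0, and CDX1, whose fitted values depend on the pseudocount, is not shown for the direct comparison.

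By profile over the 6 libraries, the genes nearest to each member were sought among 11014 protein-coding genes. Likeness was the Euclidean distance between profiles of log2(normalized count + 1), each centred on its own mean, and is a description without a test, since the points share libraries and groups. The nearest to HNF4A was CD44, a cell surface receptor for hyaluronan (distance 0.0659), before CHDH and FGFR4 (both within 0.206). Near to CDX2 were PIGQ (0.149) and ZNF572 (0.170). HNF4G lay closest to IL1RL2 (0.0170), ELF4 (0.0493) and ZMYM2 (0.0554), and GATA6 to MET (0.0519), CLTA (0.0551) and WDR75 (0.0566). GATA2 had PFKL (0.0504), FOXA1 (0.0580) and CHST14 (0.0845) as its nearest profiles. The rise of KLF4 was met most closely by IL6R (0.104), DUSP5 (0.174) and DNHD1 (0.324), and the profile of KLF5 by PRKD2 (0.0228), FBXO46 (0.0308) and IL4R (0.0316). For CDX1, with few reads, the nearest were more distant, CLDN2 (0.755), CABP1 (0.765) and MYB (0.805).

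Other factors of the CDX, GATA and Krüppel-like families moved both ways. The counts of this and the following lists stand beside the shares of all genes called. These were 39.1% higher and 38.2% lower after histidine depletion, 36.1% and 34.8% after tryptophan depletion, and 39.9% and 38.4% between the depletions. Genes given with a change from this and the following lists are, unless said otherwise, those with the largest changes past the threshold. They were taken among genes whose higher group averaged 100 or more normalized counts. Of 21 such family factors 12 were tested after histidine depletion, of which 6 rose, 5 fell and 1 did not pass (median log2 fold change 0.26). After tryptophan depletion 11 were tested, of which 9 rose and 2 fell (0.48). After histidine depletion the largest rises were of KLF10 (log2 fold change 1.78), GATA3 (1.34) and KLF9 (1.28), and the largest falls of KLF15 (−1.57), KLF12 (−1.39) and KLF8 (−0.84). After tryptophan depletion KLF9 (2.31), KLF8 (0.95) and KLF15 (0.84) rose most, and KLF12 (−1.18) and KLF6 (−1.03) fell. Between the depletions 5 of 12 were higher and 6 lower after histidine depletion.

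Among 22 other transcription factors of intestinal epithelium, 19 were tested in each comparison. After histidine depletion 7 rose and 10 fell (median −0.33), with PRDM1 (1.66), BCL6 (1.61) and VDR (1.08) highest and the foregut and duodenal factor PDX1 (−2.02) and the pioneer factors FOXA2 (−1.54) and FOXA1 (−1.45) lowest. After tryptophan depletion 10 rose and 8 fell (median 0.27), with BCL6 (2.15), PRDM1 (2.03) and PPARA (1.17) highest and PDX1 (−0.76), FOXA1 (−0.75) and SOX9 (−0.60) lowest. Between the depletions 16 of the 19 were lower and 2 higher after histidine depletion (median −0.71).

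Genes of differentiated intestinal cells, in which these factors act, moved in both directions in each depletion. Of 36 listed, 18 were tested after histidine depletion, of which 4 rose, 13 fell and 1 did not pass (median −1.07), and 17 after tryptophan depletion, of which 7 rose, 6 fell and 4 did not pass (0.084). PHGR1 (−4.68), the sodium-glucose cotransporter gene SLC5A1 (−3.13) and the ferroxidase gene HEPH (−3.01) had the largest falls after histidine depletion by that rule, while KRT20 (1.74) and EPS8 (0.86) rose. MUC2, not named by the rule there, also fell (−2.40), from 745 ± 23.9 to 144 ± 48.6 normalized counts (SD, n = 2). After tryptophan depletion the protocadherin genes of the brush border CDHR5 (2.52) and CDHR2 (2.48) and the keratin gene KRT20 (2.38) rose, and PHGR1 (−2.60), HEPH (−0.98) and MUC2 (−0.33) fell, the last not without the trend (adjusted p = 0.0894), under quantile normalization (0.0731), in the fit on all 6 libraries (0.0679) or without tryptophan depletion replicate 2 (0.0971). In the direct comparison 13 of 16 were lower and 3 higher after histidine depletion (median −1.87). Some of these genes had to differ, since, like CDX1, they passed the filter through their higher group alone. They were 4 of the falls (FABP1, ANPEP, ESPN and GPA33) and 1 of the rises (MTTP) after histidine depletion, 1 of the falls (FABP1) after tryptophan depletion, and 2 lower genes (ESPN and GPA33) and 1 higher (MTTP) between the depletions. Of 11 matched gastric genes 5 were tested, of which 1 rose and 3 fell after histidine depletion and 2 rose and 2 fell after tryptophan depletion. VSIG1 (−2.07 and −1.76) and ANXA10 (−1.27 and −0.96) fell in both, and TFF1 rose after tryptophan depletion (1.00). TFF1 fell after histidine depletion (−1.66), but its higher group averaged 84.6 normalized counts there, under the limit for named genes. Of 11 colon epithelium markers 5 rose and 6 fell after histidine depletion and 7 rose and 1 fell after tryptophan depletion, and GPA33, which passed the filter in the way just given, is 1 of the 6 falls.

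**Figure D4:**
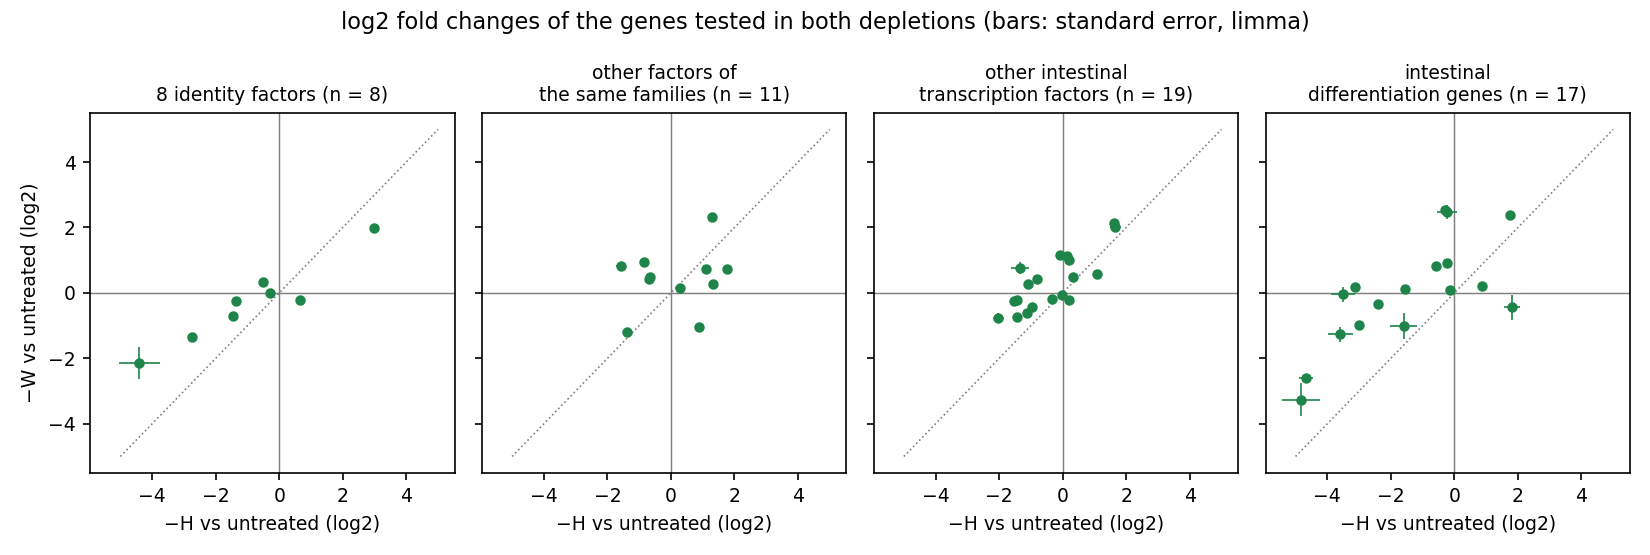
log2 fold change after tryptophan depletion (−W, vertical) against that after histidine depletion (−H, horizontal), both against the same untreated libraries, for the 8 members, 11 other factors of the same families, 19 other intestinal transcription factors and 17 intestinal differentiation genes, with standard errors as bars and equal changes as a dotted line. The lowest point of the members is CDX1, whose fitted values depend on the pseudocount. Of the intestinal differentiation genes, 13 are called lower after −H (of 18 tested) and 6 after −W (of 17). Of all genes tested, 38.2% and 34.8% are called lower. Among the 13 and the 6 falls, 4 and 1 passed the filter on low values through the untreated group alone.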

How the data were processed

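RNA-seq of 6 HT29 libraries (untreated, histidine depletion and tryptophan depletion, 2 each, 48 h) was used. Per the study's methods and the submitters' processing notes, the authors aligned the reads with STAR 2.7.10a to GRCh38, took exon counts with htseq-count (HTSeq 2.0.5) against gencode 38 and deposited normalized counts (a non-negative signal) made with DESeq2 in a separate table per depletion. The libraries were made with a stranded mRNA kit and adapters that carry molecular identifiers. How these identifiers and strand were treated in counting is not given in the sources used here. Each value was divided by the step shared within its library, and 100% of values came out as whole reads (tolerance 0.01), and median-of-ratios size factors over all 6 libraries scaled these reads for values per library and for the comparison of the depletions. Of 60676 identifiers 60357 matched gencode 44.

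Genes whose mean reached 10 over a comparison's libraries entered a two-sided limma fit with a mean-variance trend (limma 3.58.1, R 4.3.3) on log2(normalized count + 1), with Benjamini-Hochberg adjustment over all genes and called at 0.05. On this scale the change of low genes is understated. The code was tested on simulated data. An exact permutation test of 2 against 2 libraries cannot reach the threshold and was not used. A level per length is the reads per kb of merged exons per M reads. Replicate libraries differed by more than counting noise (chi-square per degree of freedom 8.77, 4.03 and 1.85 in untreated, histidine-depleted and tryptophan-depleted cells, over genes with at least 20 reads), and each counted as a sample. The members, lists and tests were chosen with earlier results of these data known. The rule for named genes took the 8 members, up to 3 genes per list, depletion and direction with the largest change past the threshold and a mean of at least 100 in the higher group, and the 3 nearest profiles per member, and not every gene that it selects is reported here. Of the marker lists only values that bear on the members are given. As alternatives, the pseudocount was set to 0.5 or 8, the filter removed or raised to 50, the trend left out, values normalized by quantiles, recovered reads tested with edgeR 4.0.16 (TMM) or DESeq2 1.42.0, the replicate number used as a block, all 6 libraries fitted together, a fold limit of 1 on the log2 scale added, each library left out and length taken from the longest transcript. Python 3.11.15, pandas 2.3.3, numpy 2.4.6, scipy 1.17.1 and matplotlib 3.10.9 were used. Mass spectrometry data were not analysed here.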

Additional observations from a re-analysis of the deposited data

Results flagged for a closer look

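HNF4G and GATA6 stand out because they were called in opposite directions in the depletions, with a direct difference that passed the test. HNF4G was called lower after histidine depletion (log2 fold change −0.51) and higher after tryptophan depletion (0.32), and the direct difference of histidine minus tryptophan depletion was −0.85 (limma adjusted p = 3.57e-10). GATA6 was called higher after histidine depletion (0.65) and lower after tryptophan depletion (−0.22), and its direct difference was 0.86 (limma adjusted p = 2.94e-09). In both genes the 2 libraries of each depletion stood on opposite sides of both untreated libraries. The fall of GATA6 after tryptophan depletion was not called without the trend or without tryptophan depletion replicate 1, whereas its direct difference kept its direction and its call in every alternative other than the limit on the fold.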

How the results depend on the processing

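Across up to 15 alternatives per comparison, 317 of 339 values of the members kept their direction and call, 18 lost the call and 4 changed sign. A required absolute log2 fold change of at least 1 lowered the members called to 5 after histidine depletion, 3 after tryptophan depletion and 2 between the depletions, and all genes called to 5949, 3674 and 5863. The values without a call there were, by construction, those of HNF4G (−0.51), GATA6 (0.65) and KLF5 (−0.30) after histidine depletion, of CDX2 (−0.24), HNF4G (0.32), GATA6 (−0.22) and GATA2 (−0.72) after tryptophan depletion, and of HNF4G (−0.85), GATA6 (0.86), GATA2 (−0.74), KLF4 (0.96) and KLF5 (−0.32) between the depletions. After tryptophan depletion CDX2 lost its call without the trend (−0.24), under quantile normalization (−0.13) and with DESeq2 (−0.25), and ranged from −0.34 to −0.14 with a library left out. GATA6 lost its call without the trend (−0.22) and ranged from −0.28 to −0.17 with a library left out. KLF5 changed sign under quantile normalization (−0.14, adjusted p = 0.00023) and with DESeq2 (−0.0049, adjusted p = 0.920), and ranged from −0.024 to 0.034 with a library left out, below 0 without untreated replicate 1 (−0.024) and without tryptophan depletion replicate 2 (−0.0030). The cause of these changes was not tested.

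The fitted fold change of CDX1 after histidine depletion ranged from −7.36 to −1.82 over the settings, so that the size of that fall is given as a bound alone. CDX1 was not tested with a mean of at least 50 or without an untreated library. Counts per list kept within 1.5 times in 671 of 720 cases. After histidine depletion 7 intestinal differentiation genes rose with no filter and 2 with a mean of at least 50, in place of 4. Labels give the groups the same replicate numbers, but the replicate differences did not pair (correlations of 0.117, −0.053 and −0.104 over 12480 genes), and with the replicate number as a block the members called were 8, 7 and 7 and all genes called 14432, 12766 and 14335, with no call of a member changed. Between the depletions 8 members were called with no filter in place of 7, as CDX1 was then tested, again with a fitted size that depends on the pseudocount. When a library is left out, the lone library of its group is assumed to vary like the others.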
